A study of Mus musculus with 14 samples.

Results

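The 8 genes described here are the astrotactins Astn1 and Astn2, the related genes Brinp1, Brinp2 and Brinp3, and 3 genes that lie in or beside Astn2 in the mouse genome: Trim32, Pappa and Tlr4. They were listed by name, with earlier results of these data known, and all 8 were found among the 24100 genes of the count table. The libraries come from cerebella of mice at postnatal day 21, either Astn2 knockout (Astn2 KO) or wild-type (WT) littermates. Every mouse carried Tg(Pcp2-L10a-EGFP), which puts an EGFP-tagged ribosomal protein under the Purkinje cell promoter Pcp2, so that the controls carry it too. Input libraries hold RNA of the cleared homogenate of whole cerebellum (3 KO, from 2 females and 1 male; 4 WT, from 1 female and 3 males). Translating ribosome affinity purification (TRAP) libraries hold RNA pulled down with the tagged ribosomes by GFP antibodies (4 KO, from 2 females and 2 males; 3 WT, from 1 female and 2 males). How the Astn2 KO allele was made, and whether an input and a TRAP library of the same number came from 1 mouse, are not given in the sources used here. Nothing in them says that each library of a group is a separate mouse, so the p-values measure the spread between these libraries, which may be technical.

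Astrotactins are large membrane glycoproteins. ASTN1 is known as an adhesion protein that migrating cerebellar granule neurons use on Bergmann glial fibres. ASTN2 binds ASTN1 and controls how much of it stands on the cell surface, and in Purkinje cells it is known for its part in the endocytic trafficking of synaptic surface proteins. The BRINP proteins are neuronal relatives that share with the astrotactins a MACPF domain, the fold of perforin and the late complement components. TRIM32 is an E3 ubiquitin ligase of the TRIM-NHL class, PAPPA is a secreted protease that cleaves IGF-binding proteins, and TLR4 is the lipopolysaccharide receptor of innate immune cells. The questions asked of these genes were whether the paralogs of Astn2, or genes close to it, differ in level when Astn2 is lost.

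In the GENCODE M21 annotation of GRCm38 (mm10), Astn2 lies on the minus strand at chr4:65380803-66404611 and has 23 exons in its transcript Astn2-201. Trim32 (chr4:65604986-65616238, plus strand) lies wholly inside Astn2, in intron 16 of that transcript, 799.6 kb from the Astn2 start site and on the opposite strand. The exons of Trim32 share 0 bases with exons of Astn2. Pappa (chr4:65124174-65357509, plus strand) begins and ends outside Astn2, 23.3 kb beyond its 3′ end, and Tlr4 (chr4:66827584-66930284, plus strand) lies 423.0 kb beyond its 5′ end. Brinp1 (chr4:68761514-68954397, minus strand) is on the same chromosome, 2356.9 kb from Astn2. The other 3 family members are on chromosome 1, where Brinp2 (chr1:158245269-158356326, minus strand) and Astn1 (chr1:158362273-158691781, plus strand) are separated by 5.946 kb, and Pappa2, the relative of Pappa, follows Astn1 after 19.9 kb. Brinp3 (chr1:146494760-146902472, plus strand) is 11342.8 kb from Brinp2.

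**Figure D1:**
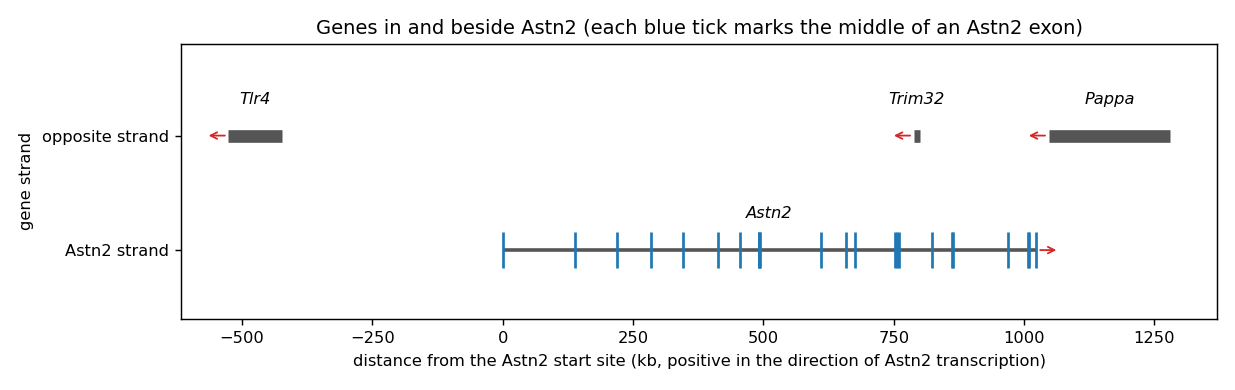
Map of Astn2, Trim32, Pappa and Tlr4 to scale. The horizontal axis is the distance from the Astn2 start site in kb, rising in the direction of Astn2 transcription; grey bars are gene spans, blue ticks the middles of the 23 exons of Astn2-201, and arrows the direction of transcription. Trim32 sits 799.6 kb into Astn2, on the opposite strand.

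Because the counts of paralogs can only be read separately where their sequences differ, the most similar gap-free stretch of 60 coding bases of the astrotactins is shown, with the differing bases in capitals. It runs from coding base 3490 to 3549 of transcript Astn1-205 and from 3640 to 3699 of Astn2-201.
Astn1: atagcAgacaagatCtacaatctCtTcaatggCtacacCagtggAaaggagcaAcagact
Astn2: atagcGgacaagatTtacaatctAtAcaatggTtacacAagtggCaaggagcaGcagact
Even there, 8 of the 60 bases differed and 52 were identical. The longest run of identical coding bases was 22 between Astn1 and Astn2, 28 between Brinp2 and Brinp3, and 11 to 19 in the other 8 pairs of the family. No stretch of 50 bases was shared by the transcripts of any of the 10 pairs.

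The promoter of Trim32 is shown because that gene differed between the genotypes. Among the 8 genes, 5 had an entry in the RefSeq promoter table of GRCm38.p6. The 250 bases before the RefSeq start of Trim32, at chr4:65604736-65604985 on the plus strand, inside the intron of Astn2, read as follows, with a CCAAT box on the minus strand in capitals.
Trim32 promoter: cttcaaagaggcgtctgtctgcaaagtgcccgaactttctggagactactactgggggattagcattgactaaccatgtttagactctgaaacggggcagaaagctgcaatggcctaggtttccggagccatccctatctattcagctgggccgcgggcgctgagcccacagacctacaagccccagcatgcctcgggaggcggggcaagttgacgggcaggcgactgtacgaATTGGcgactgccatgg
This stretch holds 57.2% G and C bases and 13 CpG dinucleotides, against a median of 52.4% over the 32851 RefSeq promoters of the same length. The motif CCAAT, read on both strands, occurs in 33.8% of those promoters. Searches on both strands for GGGCGG (in 32.7% of all promoters), TATAAA (12.4%), CACGTG (6.02%) and TGACGTCA (1.55%) found no match in it.

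Each library held between 18.8 and 54.2 M counts (M, 1e6). The Purkinje markers fixed for this work summed to 5499 to 5942 CPM in input WT and 73455 to 79395 CPM in TRAP WT, where CPM are counts per 1e6 counts, with TMM factors over the 14 libraries. They were higher in TRAP than in input for 10 of 10 genes, as the label of the fraction has it. In WT 10 of 10 granule cell, 10 of 10 oligodendrocyte, 8 of 8 endothelium and 9 of 10 microglia markers were lower. Astroglia had 1 of 10 markers higher and 9 lower, and molecular layer interneurons 1 of 7 higher and 6 lower. Their sums were higher in TRAP WT (7237 to 10975 and 4998 to 21843 CPM) than in input WT (2754 to 3136 and 1012 to 1112 CPM). As the other markers were lower, the higher sums rest on the 1 higher marker of each panel (log2 fold change 2.77 and 4.10). They do not show that the panels as a whole were higher. Of 6 choroid plexus markers 1 was higher and 5 were not called. No gene of the 8 marker panels was at 0 in every library of a group. WT replicate 3 stood apart among the TRAP libraries: 861 of 14145 genes (6.09%) were over 1.5 times as high in it as in every other TRAP library, against 27 to 83 genes (0.191% to 0.587%) in each of the other 6. Astn1 and Brinp2 are among the genes that were high in it, and the fitted differences of the 8 genes that rest on TRAP WT are given below with and without it.

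Astn2 was reduced to about 1% of its WT level in both fractions. In input it measured 87.8, 95.2, 90.9 and 103.7 CPM in the 4 WT libraries and 0.739, 0.970 and 0.947 CPM in the 3 KO libraries. In TRAP it measured 116, 127 and 145 CPM in WT and 1.33, 1.58, 2.10 and 1.06 CPM in KO. Every KO library was far below every WT library, a separation that 3.66% of all genes showed in input and 2.62% in TRAP, and the mean in KO was 0.937% of that in WT in input and 1.17% in TRAP. The log2 fold change (KO minus WT) was -6.70 ± 0.11 in input (SE; edgeR adjusted p = 1.46e-08) and -6.39 ± 0.25 in TRAP (SE; edgeR adjusted p = 3.46e-05), or -6.34 in TRAP without WT replicate 3. The KO libraries still held 24 to 64 Astn2 counts each, and gene counts do not show from which exons they came. A gene was called where edgeR's quasi-likelihood test with Benjamini-Hochberg adjustment over all genes tested gave a p under 0.05. By that rule 1 of the 6 members tested was called in TRAP, against 0.00707% of all 14145 genes, that is, Astn2 alone. In input 2 of 8 members were called, Astn2 lower and Trim32 higher, against 0.0188% of 15997 genes (0.00625% higher and 0.0125% lower); the third gene called in input was the opposite-strand transcript Zfhx2os (-0.92 ± 0.10), which is no member.

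Trim32, the ubiquitin ligase gene in the Astn2 intron, was about 2 times as high in KO as in WT in both fractions. In input it measured 95.6, 107, 123 and 129 CPM in WT and 238, 205 and 242 CPM in KO. In TRAP it measured 88.6, 86.2 and 108 CPM in WT and 178, 181, 194 and 165 CPM in KO. The groups did not overlap in either fraction, whereas 7.78% of all genes in input and 1.94% in TRAP had every KO library above every WT library. The counts behind these values were 1303 to 16324 per library. Among the females, input measured 95.6 CPM in the WT library against 238 and 205 in KO, and TRAP 88.6 CPM in WT against 178 and 181 in KO; among the males every KO library was also above every WT library in both fractions.

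The log2 fold change of Trim32 in input was 1.07 ± 0.10 (SE; 95% interval 0.83 to 1.31; edgeR adjusted p = 0.0296), a 2.10-fold difference. In TRAP it was 0.94 ± 0.16 (SE; 95% interval 0.58 to 1.30), a 1.92-fold difference with an unadjusted p of 2.67e-04, the second smallest of the 14145 genes after Astn2. It did not pass in TRAP after adjustment over all genes (edgeR adjusted p = 0.9997). It was called there by the DESeq2 Wald test (0.94, adjusted p = 7.43e-04), by limma with sample quality weights (1.03, adjusted p = 0.00239) and when all 14 libraries were fitted together in edgeR (0.95, adjusted p = 0.0180). The call in input was lost when KO replicate 3 (1.21, edgeR adjusted p = 0.397) or WT replicate 1 (0.97, adjusted p = 0.0739), 2 (1.05, adjusted p = 0.0993) or 3 (1.08, adjusted p = 0.0977) was left out. Without TRAP WT replicate 3 the difference in TRAP was 1.04 (edgeR adjusted p = 0.202). The difference between the fractions in the genotype effect was -0.10 ± 0.17 (SE; 95% interval -0.46 to 0.26; edgeR adjusted p = 0.9991). Whether the counting used strand is not given in the sources used here, so reads of unspliced Astn2 RNA that cross Trim32 cannot be told apart from reads of Trim32.

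**Figure D2:**
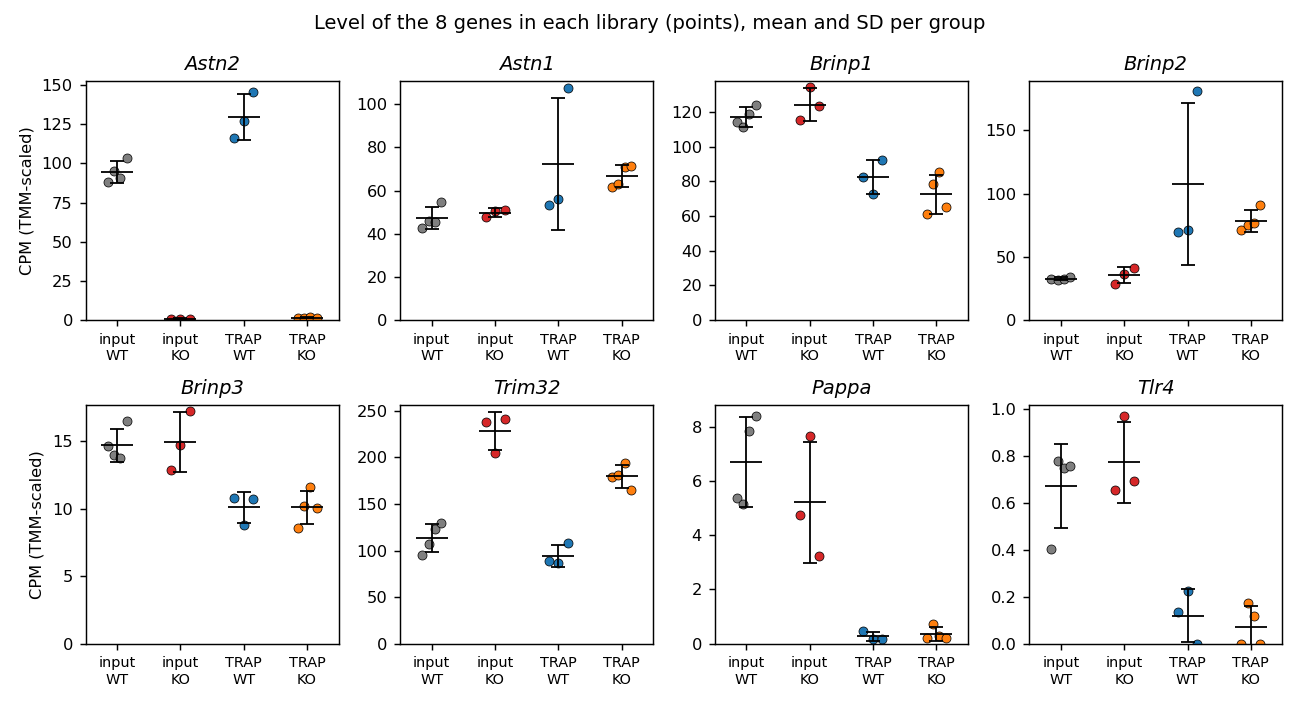
Level of each of the 8 genes in CPM (vertical axes, each from 0) by group; every point is a library, and the bars give the group mean and SD (n = 4, 3, 3 and 4 from left to right), with lower SD bars ending at 0 where they would cross it. Astn2 is near 0 in KO, Trim32 is higher in both KO groups than in both WT groups, and 1 TRAP WT library is high for Astn1 and Brinp2.

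Astn1, the closest paralog and the neuronal adhesion gene, was not called in either fraction. In input it measured 42.7, 46.0, 45.7 and 54.8 CPM in WT and 47.6, 50.7 and 51.1 CPM in KO, so that the KO libraries lay within the range of WT. Its log2 fold change in input was 0.09 ± 0.09 (SE), with a 95% interval from -7.87% to 23.5% in KO. In TRAP it measured 53.5, 56.0 and 107.5 CPM in WT and 61.8, 62.9, 71.0 and 71.3 CPM in KO. With all 7 libraries the difference was -0.03 ± 0.23 (SE; 95% interval -0.56 to 0.50; edgeR adjusted p = 0.9997). Without TRAP WT replicate 3, which held the 107.5 CPM, it turned to 0.29 (edgeR unadjusted p = 0.0432, adjusted p = 0.940). In that fit 410 genes had an unadjusted p under 0.05. Each of the 4 KO libraries was above the 2 other WT libraries, whereas with all 7 libraries the groups overlapped. The share of all genes with that separation was not counted, so it cannot be read as a difference of Astn1.

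Brinp2, the neighbour of Astn1 on chromosome 1, depended on the same library. In input it measured 32.8, 32.0, 32.2 and 34.4 CPM in WT and 28.9, 36.1 and 41.3 CPM in KO. The KO libraries spread to both sides of WT, and the difference was 0.14 ± 0.10 (SE; 95% interval -5.85% to 28.6%). In TRAP it measured 69.7, 71.3 and 181 CPM in WT and 71.3, 75.0, 76.7 and 90.8 CPM in KO. The log2 fold change was -0.33 ± 0.31 (SE; 95% interval -1.05 to 0.38) with all libraries and 0.16 without TRAP WT replicate 3, and neither passed the test (edgeR adjusted p = 0.9997 and 0.940).

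Brinp1 and Brinp3, the members of the BRINP family with lower levels in TRAP than in input, overlapped between the genotypes in both fractions. Brinp1 measured 114, 111, 119 and 124 CPM in input WT and 115, 134 and 123 CPM in input KO. Its difference was 0.06 ± 0.08 (SE; 95% interval -8.25% to 18.1%). In TRAP, Brinp1 measured 82.6, 72.7 and 92.3 CPM in WT and 60.9, 78.3, 85.4 and 65.1 CPM in KO, a difference of -0.17 ± 0.18 (SE; 95% interval -33.0% to 17.2%), or -0.098 without TRAP WT replicate 3. Brinp3, the least abundant of the family, ranged from 13.8 to 16.5 CPM in input WT and from 12.9 to 17.3 CPM in input KO. In TRAP it ranged from 8.79 to 10.8 CPM in WT and from 8.58 to 11.6 CPM in KO. Its differences were 0.05 ± 0.10 in input (SE; 95% interval -12.04% to 22.1%) and 0.01 ± 0.19 in TRAP (SE; 95% interval -25.7% to 36.1%), and 0.044 in TRAP without WT replicate 3.

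Across the 4 paralogs of Astn2, 0 were called in input or in TRAP by edgeR, by DESeq2 or by limma with quality weights, and 0 had an unadjusted p under 0.05 in either fraction with all libraries. The intervals in input allow rises of up to 18.1% to 28.6%. In TRAP they are wider and allow rises of up to 17.2% (Brinp1) to 41.6% (Astn1). Per kb of the longest transcript, Astn2 stood at 19.0 ± 1.39 CPM (SD, n = 4) in input WT, and Astn1 at 6.53 ± 0.719 CPM in WT and 6.87 ± 0.264 CPM in KO (SD, n = 3). In TRAP, Astn2 stood at 26.1 ± 2.98 CPM per kb in WT (SD, n = 3), and Astn1 at 9.98 ± 4.21 in WT and 9.21 ± 0.706 in KO (SD, n = 4). The order of these levels turns round with the median length of the annotated transcripts, at which Astn1 read 58.5 and Astn2 19.6 CPM per kb in input WT, and 89.5 and 26.9 in TRAP WT.

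**Figure D3:**
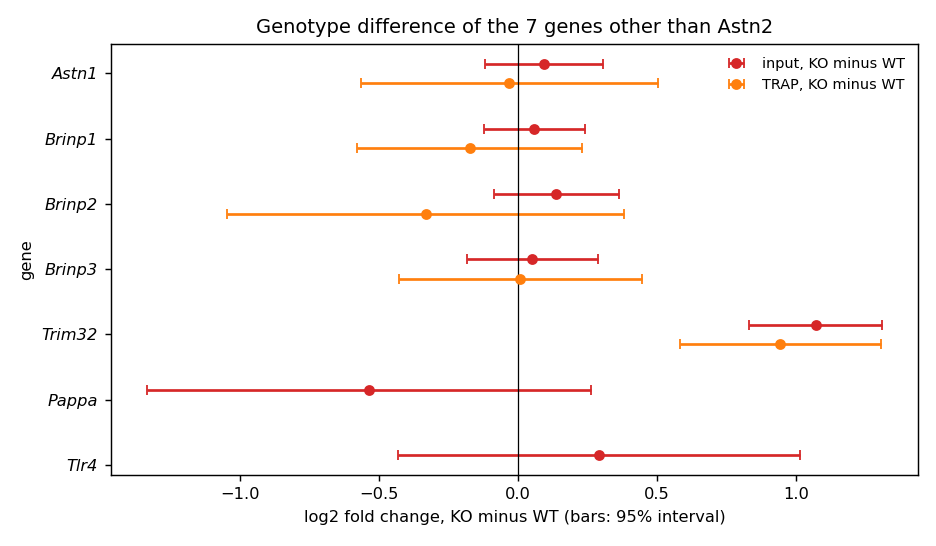
Log2 fold change between KO and WT (horizontal axis) for the 7 genes other than Astn2, in input and in TRAP, with 95% intervals of edgeR's fit as bars. Only the intervals of Trim32 lie wholly above 0; Pappa and Tlr4 had too few TRAP counts to be fitted.

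Pappa, the protease gene that lies beyond the 3′ end of Astn2, measured 5.38, 5.16, 7.82 and 8.39 CPM in input WT and 4.73, 7.64 and 3.24 CPM in input KO. The groups overlapped, and the difference was -0.54 ± 0.35 (SE; 95% interval -1.33 to 0.26; edgeR adjusted p = 0.530). The sign rested on KO replicate 3, without which it was 0.20. In TRAP Pappa had 3 to 21 counts per library, 0.165 to 0.476 CPM in WT and 0.195 to 0.736 CPM in KO, and was removed by the filter on low counts. An exact two-sided permutation test of those CPM gave p = 0.629 (smallest possible 0.0286).

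Tlr4, the receptor gene beyond the 5′ end of Astn2, was near the detection limit. It measured 0.405, 0.778, 0.748 and 0.760 CPM in input WT and 0.654, 0.970 and 0.696 CPM in input KO, on 14 to 59 counts per library. The difference was 0.29 ± 0.32 (SE; 95% interval -0.43 to 1.01; edgeR adjusted p = 0.720), and it turned to -0.18 without WT replicate 1, the library with 0.405 CPM. In TRAP it had 0 to 5 counts, with 0 in 1 of the 3 WT and 2 of the 4 KO libraries, where a count of 0 allows up to 3 counts by counting error alone. An exact two-sided permutation test gave p = 0.571. The 10 microglia markers summed to 38.4 to 69.4 CPM in input WT and 46.9 to 52.6 CPM in input KO, so their ranges overlapped too.

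The wider neighbourhood was examined for other differences. Of 112 genes of the table within 10 Mb of Astn2, 61 were tested in input and 55 in TRAP. Trim32 was the 1 gene called among the 61 in input, where 0.00625% of all genes were called higher, and no gene was called among the 55 in TRAP. Leaving out Trim32, the median log2 fold change of the local genes was 0.05 in input and 0.01 in TRAP, beside -0.01 and 0.00 over all genes. In input, 3 of these 60 genes were higher and 2 lower at an unadjusted p under 0.05, where 13.7% of all genes had such a p. They were the collagen gene Col27a1 (-0.64), Ecpas (0.24), Ptprd (-0.17), Frmd3 (0.22) and Kdm4c (0.16), with edgeR adjusted p of 0.169, 0.198, 0.286, 0.343 and 0.360. In TRAP 0 of 54 had such a p, against 1.5% of all genes, and the 4 nearest to it were Ecpas (0.42), Susd1 (-0.48), Zfp618 (0.53) and Cdc26 (-0.42), each with an edgeR adjusted p of 0.9997. Ecpas, a proteasome adaptor gene 6.46 Mb away, was thus above 0 in both fractions without being called in either.

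The nearest genes tested on each side of Astn2 were not called either. Beyond Pappa, the extracellular matrix gene Tnc was at 0.24 ± 0.14 in input and 0.39 ± 0.33 in TRAP (SE), and the TNF-family gene Tnfsf15 at -0.43 ± 0.35 in input. Beyond Brinp1, the centrosomal gene Cdk5rap2 was at 0.08 ± 0.06 in input and 0.15 ± 0.20 in TRAP. The next in TRAP were Tmem268 (0.06 ± 0.18), Atp6v1g1 (-0.11 ± 0.32) and Megf9 (-0.16 ± 0.56).

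**Figure D4:**
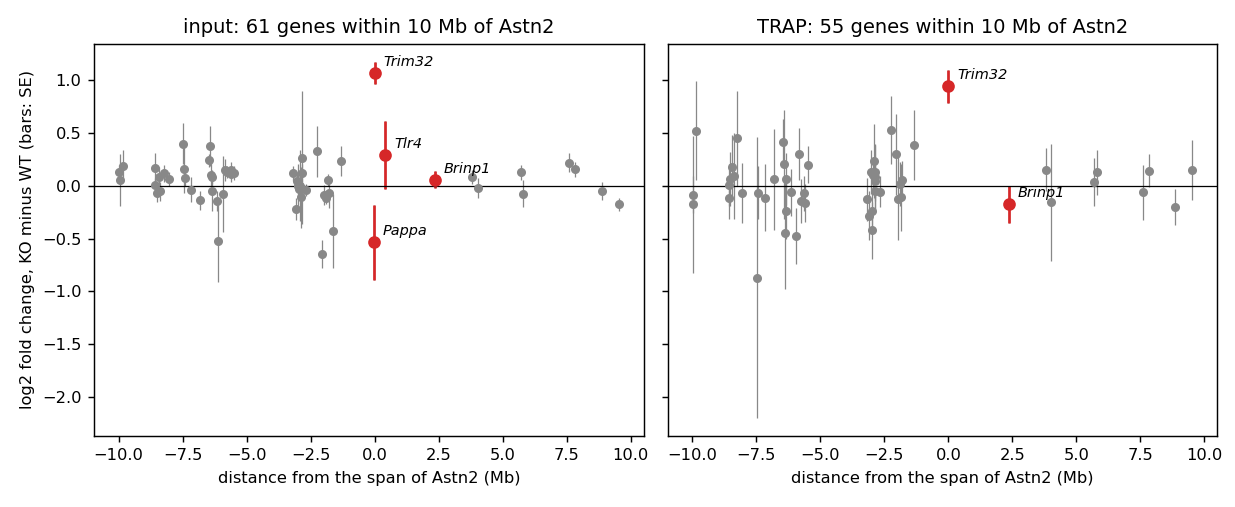
Log2 fold change between KO and WT (vertical axis, bars are SE) of the genes tested within 10 Mb of Astn2, without Astn2 itself, against their distance from the span of Astn2 in Mb (negative toward the start of chromosome 4). Trim32 at distance 0 stands above the 60 other genes in input and the 54 in TRAP, and members are in red.

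The interaction test, which asks whether a genotype difference differed between TRAP and input, called none of the 8 members and none of 16042 genes in edgeR (430, or 2.68%, had an unadjusted p under 0.05; the DESeq2 Wald test called 1 gene). The members' values ran from -0.73 ± 1.19 (Tlr4) to 1.09 ± 0.71 (Pappa), both of which rest on a handful of TRAP counts. For Brinp2 it was -0.59 ± 0.35 (SE) with all libraries and 0.0045 without TRAP WT replicate 3. Without that library none of the 8 was called either, and the values ran from -1.52 (Tlr4) to 0.87 (Pappa), with Astn1 at 0.17, Astn2 at 0.35, Brinp1 at -0.17, Brinp3 at -0.0014 and Trim32 at 0.012.

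The 8 genes differed in how much of their RNA was recovered with Purkinje ribosomes. In WT mice Brinp2, Astn1 and Astn2 were higher in TRAP than in input, while Pappa, Tlr4, Brinp3 and Brinp1 were lower. These 3 higher and 4 lower calls of 8 compare with 37.0% and 38.5% of all 16042 genes (75.5% in either direction), so that a call was common. In KO 2 members were called higher and 5 lower, against 36.3% and 39.6% of all genes (75.9% in either direction). The libraries of the 2 fractions did not overlap for 2 members higher and 4 lower in WT, against 34.2% and 38.3% of all genes, and for 3 higher and 5 lower in KO, against 37.3% and 40.8%. With the TRAP library that stood apart left out, 8 of 8 members were called in WT. That fit called 12350 genes (5849 higher and 6501 lower), against 12118 with all libraries, so a call was common there too. In these bulk libraries, fewer cells of a type and less RNA per cell cannot be told apart.

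Brinp2 had the largest positive difference in WT, with 32.0 to 34.4 CPM in input and 69.7 to 181 CPM in TRAP, a log2 fold change of 1.71 ± 0.25 (SE; edgeR adjusted p = 2.36e-05). Without TRAP WT replicate 3 it was 1.12, and in the KO libraries, which do not include that library, it was 1.12 ± 0.25. Astn2 was at 0.47 ± 0.14 (edgeR adjusted p = 0.00637), with every TRAP WT library above every input WT library, and at 0.38 without TRAP WT replicate 3 (adjusted p = 0.0189). In KO it was also higher in TRAP (0.74 ± 0.19), on the remaining 24 to 64 counts. Astn1 was at 0.63 ± 0.18 (edgeR adjusted p = 0.00550) in WT but 0.22 without TRAP WT replicate 3 (adjusted p = 0.0449). In KO, Astn1 was at 0.39 ± 0.18 and did not pass (edgeR adjusted p = 0.0618), although every TRAP KO library was above every input KO library; it passed when any of the 3 TRAP WT libraries was left out of the shared fit (0.37 to 0.42, adjusted p of 6.30e-04 to 0.0459).

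Brinp1 was lower in TRAP by a log2 difference of -0.49 ± 0.13 in WT and -0.77 ± 0.13 in KO, and Brinp3 of -0.52 ± 0.14 and -0.56 ± 0.14 (SE; all 4 called). Without TRAP WT replicate 3 the values in WT were -0.61 for Brinp1 and -0.58 for Brinp3 (edgeR adjusted p = 0.00130 and 0.00402). The sister genes Brinp1 and Brinp2 thus lay on opposite sides in both genotypes. Granule cell markers were lower in TRAP in the same comparison (median -2.22 in WT), a larger difference than that of Brinp1 or Brinp3. Pappa showed the strongest depletion of the 8 genes, from 5.16 to 8.39 CPM in input WT to 0.165 to 0.476 in TRAP WT (-4.79 ± 0.50, or -4.58 without TRAP WT replicate 3), and -3.70 ± 0.41 in KO. Tlr4 was at -2.59 ± 0.77 in WT, or -1.83 without TRAP WT replicate 3 (edgeR adjusted p = 0.0343), and -3.32 ± 0.70 in KO. The median microglia marker was at -1.96 in WT and -1.86 in KO. The medians were -2.04 and -1.36 for endothelium and -2.11 and -1.86 for oligodendrocyte markers, so a difference of this kind was not particular to microglia. Trim32 was lower in TRAP in KO (-0.34 ± 0.12; edgeR adjusted p = 0.0162), where the fractions did not overlap, and at -0.25 ± 0.12 in WT, where the fractions overlapped and it did not pass (adjusted p = 0.0705). Leaving out TRAP WT replicate 3, input WT replicate 1 or TRAP KO replicate 2 brought Trim32 in WT past the test (-0.37, -0.31 and -0.29; edgeR adjusted p = 0.0188, 0.0460 and 0.0493), and leaving out input KO replicate 1 or 3 ended the call in KO (-0.29 and -0.35; adjusted p = 0.0712 and 0.0506).

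The directions of Astn1 and Astn2 rest on the scaling between fractions. TMM factors assume that most genes are alike in both fractions. With library totals alone, the median over the 16042 genes shifted by -0.82 (WT) and -0.73 (KO), and 24.2% and 24.5% of the called genes were higher in TRAP, against 5937 of 12118 and 5817 of 12176 called genes with TMM. Astn2 in WT then changed from a call higher to a call lower in TRAP (-0.35; edgeR adjusted p = 0.0392), and its call in KO was lost (0.013; adjusted p = 0.953). Astn1 in WT lost its call (-0.19; adjusted p = 0.329), and in KO it read -0.34 (adjusted p = 0.0957). Brinp2 stayed above 0 (0.89 in WT, 0.38 in KO) but was no longer called in KO (adjusted p = 0.165). Trim32 moved to -1.07 in WT and -1.08 in KO, both called, and Brinp1, Brinp3, Pappa, Tlr4 and Trim32 stayed below it under both scalings.

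**Figure D5:**
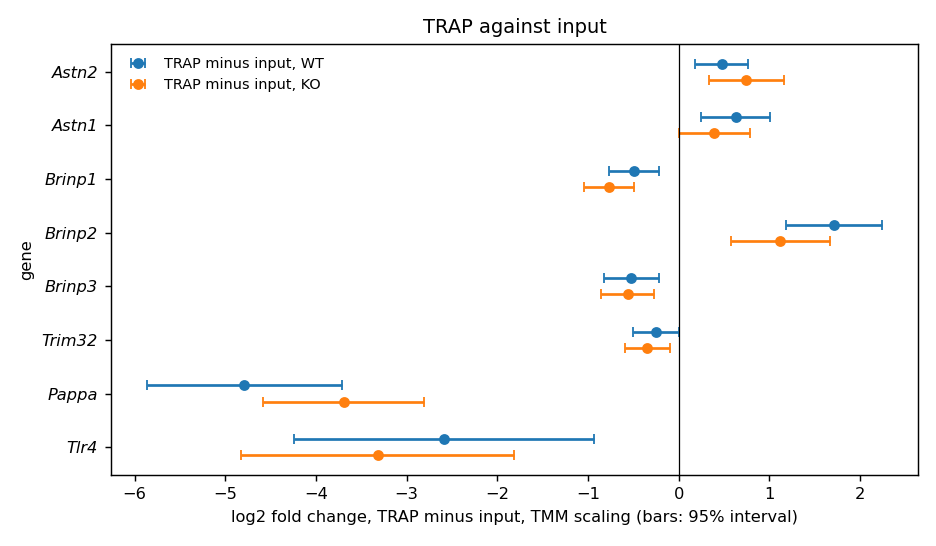
Log2 fold change between TRAP and input with TMM scaling (horizontal axis) for the 8 genes, in WT and in KO, with 95% intervals as bars. Brinp2 is the farthest to the right in both genotypes and Pappa the farthest to the left; the values of Astn2 in KO rest on 24 to 64 counts per library.

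Compared per kb of the longest transcript, levels in input WT ran from Trim32 (35.6 ± 4.80 CPM per kb; SD, n = 4) and Brinp1 (34.0 ± 1.65), which did not differ beyond their spread, through Astn2 (19.0 ± 1.39) to Brinp2 (6.69 ± 0.226) and Astn1 (6.53 ± 0.719), again within their spread, and then Brinp3 (3.66 ± 0.305), Pappa (0.606 ± 0.150) and Tlr4 (0.165 ± 0.0439). In TRAP WT the first 4 by mean were Trim32 (29.5 ± 3.70, SD, n = 3), Astn2 (26.1 ± 2.98), Brinp1 (24.0 ± 2.85) and Brinp2 (21.9 ± 13.1). Astn1 followed at 9.98 ± 4.21 CPM per kb and Brinp3 at 2.52 ± 0.287. TRAP WT replicate 3 raised the means of Brinp2 (14.2, 14.5 and 37.0 in replicates 1 to 3) and Astn1 (7.38, 7.72 and 14.8). In replicates 1 and 2 Brinp2 was below Brinp1 (24.0 and 21.1), Astn2 (23.4 and 25.7) and Trim32 (27.8 and 27.0). The order depends on the transcript length taken: with the median length of the annotated transcripts, which is 808 bases for Astn1, Astn1 was above Astn2 and Brinp1 in input WT, at the values given above for Astn1 and Astn2 and 36.4 CPM per kb for Brinp1.

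Some genes followed a member closely over the 14 libraries, where the points share the 2 fractions; the values in brackets are r over all 14 libraries and over the 13 without TRAP WT replicate 3. By Pearson's r of log2(CPM + 1) among 9633 genes with a mean of at least 10 CPM, the synaptic adhesion receptor gene Adgrb3 was nearest to Astn1 (0.976 and 0.959), followed by Stt3b (0.974 and 0.939) and the reelin receptor gene Lrp8 (0.963 and 0.924). Cntnap4 was nearest to Brinp1 (0.984 and 0.984), Mtmr6 to Brinp2 (0.990 and 0.984), Rbm10 to Brinp3 (0.957 and 0.956), Elovl7 to Pappa (0.985 and 0.984) and Igf2 to Tlr4 (0.969 and 0.967). For Astn2 and Trim32, whose levels split by genotype, the nearest genes were less alike: Tlcd3b (0.763 and 0.732) and Supt6 (0.768 and 0.757).

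None of the genes related to the members was called in a genotype comparison, with or without TRAP WT replicate 3. The lists were 7 genes with MACPF domains, 3 TRIM-NHL genes, 10 genes of the PAPPA and IGF axis, 12 of TLR4 signalling and 18 of glial-guided migration and adhesion, of which 1, 2, 8, 9 and 18 were tested in TRAP and 2, 2, 10, 12 and 18 in input. The medians in input were -0.13, 0.04, -0.04, 0.07 and 0.04, beside -0.01 over all genes. With all libraries, an unadjusted p under 0.05 was reached by 2 genes, both in input, where 13.7% of all genes had such a p. They were Stc2, which encodes an inhibitor of PAPPA (0.73, edgeR adjusted p = 0.360), and the ERBB ligand gene Nrg1 (0.43, edgeR adjusted p = 0.261). Without TRAP WT replicate 3, Stc2 (0.60), Irak4 (1.49) and Vldlr (0.34) had such a p in TRAP (edgeR adjusted p = 0.940 for each). In that fit 410 genes had one. The TRIM-NHL genes closest to Trim32, Trim2 and Trim3, were at 0.17 and -0.09 in input.

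In TRAP against input in WT, genes of these lists were called in both directions, as 37.0% (higher) and 38.5% (lower) of all genes were. Of the MACPF genes 2 of 2 tested were lower, the macrophage gene Mpeg1 (-1.83) and the complement gene C8a (-3.08), and of the TRIM-NHL genes Trim3 (-1.21) and Trim2 (-0.32; edgeR adjusted p = 0.0499). In the PAPPA and IGF axis 3 were higher, Igf1 (2.09), Stc2 (1.63) and Pappa2 (1.36), and 6 lower, led by Stc1 (-3.63), Igf2 (-3.04) and the PAPPA substrate gene Igfbp5 (-2.38). In TLR4 signalling 3 were higher, the co-receptor genes Ly96 (3.63) and Cd14 (1.76) and the adaptor gene Myd88 (0.70), and 7 lower, led by Irak4 (-3.58), Tlr3 (-3.16) and Ticam1 (-2.40). Ly96 and Cd14 thus went the opposite way to Tlr4, whose product they work with. Of the 18 migration genes 7 were higher, led by Lrp8 (1.36), Siah1a (1.35) and Prkcz (1.30), and 6 lower, led by Erbb4 (-2.86), Bdnf (-2.70) and Ntrk2 (-2.36). In KO the higher and lower calls were 0 and 2 (MACPF), 0 and 1 (TRIM-NHL), 2 and 7 (PAPPA and IGF), 3 and 7 (TLR4) and 6 and 6 (migration), against 36.3% and 39.6% of all genes.

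Some of these values rest on TRAP WT replicate 3, and the lists were fitted without it as a choice made after seeing the data. The higher and lower calls in WT were then 0 and 2 (MACPF), 0 and 1 (TRIM-NHL), 2 and 6 (PAPPA and IGF), 2 and 7 (TLR4) and 8 and 7 (migration). Over all genes that fit called 5849 higher and 6501 lower. With all libraries 5937 (37.0%) and 6181 (38.5%) were called, so such calls were common in both fits. Cd14 (0.86, edgeR adjusted p = 0.0611), Trim2 (-0.32, adjusted p = 0.0627) and Pappa2 (0.32, adjusted p = 0.638) lost their calls, Lrp8 fell to 0.55, and the other genes named for WT kept call and direction. Pappa2 had 2, 8 and 27 counts in the TRAP WT libraries (0.136, 0.448 and 1.11 CPM), the 27 in replicate 3, against 0.122 to 0.376 CPM in input WT. In KO it stood at 0.0440 to 0.234 CPM in TRAP and 0.252 to 0.378 in input, the opposite direction (-1.50 ± 0.66; edgeR adjusted p = 0.0537), and its interaction was -2.86 ± 0.86 with all libraries and -1.81 without that one (unadjusted p = 0.00522 and 0.0486; edgeR adjusted p = 0.9991 and 0.942).

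Marker panels gave the cell makeup beside the genotype values. No marker was called between genotypes. In input, 8 of 8 endothelium markers were below 0 (median -0.60, beside -0.01 over all genes). An unadjusted edgeR p under 0.05, which 13.7% of all genes had in input, was reached by 3 of the 8, all lower. Such a p was also reached by 3 of 10 Purkinje and 2 of 7 molecular layer interneuron markers, all higher. Of 10 astroglia markers 3 were higher and 1 lower at that p, and of 10 granule cell markers 1 and 1. In TRAP, where 1.5% of all genes had such a p, 2 of 3 choroid plexus markers tested and 1 of 10 Purkinje markers were lower. In input the sums overlapped between KO and WT for the microglia, endothelium (14.8 to 23.8 CPM in KO, 22.4 to 32.3 in WT), oligodendrocyte, astroglia and choroid plexus panels, and also for the Purkinje (5920 to 6718 CPM in KO, 5499 to 5942 in WT) and granule cell panels (5343 to 5503 and 5140 to 5397). The molecular layer interneuron sums did not overlap, at 1127 to 1211 CPM in KO and 1012 to 1112 in WT. Of all single genes, 7.78% had every KO library above every WT library in input, and the share among sums of 7 genes was not counted. In TRAP the Purkinje sum was 66514 to 74227 CPM in KO and 73455 to 79395 in WT. The choroid plexus sum was uneven within groups, at 10.0 to 1172 CPM in input KO, 11.4 to 401 in input WT, 84.8 to 105 in TRAP KO and 114 to 203 in TRAP WT. The part of these panels in the members' differences was not tested.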

How the data were processed

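RNA sequencing was done on 14 libraries of mouse cerebellum in 4 groups. The authors deposited whole-number counts per gene, with no normalization and Entrez gene numbers as names; per the submitters' processing notes, Salmon 0.8.2 and mm10 were used, without their roles. The annotation, strand setting and counting step are not given in the sources used here. Symbols came from RefSeq (24045 of 24100 genes matched), and coordinates and transcript lengths (21166 genes) from GENCODE M21, both on GRCm38.

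The main test was edgeR 4.0.16 (R 4.3.3, quasi-likelihood, two-sided, TMM factors, filterByExpr, sex as covariate, Benjamini-Hochberg adjustment over all genes tested, threshold 0.05). It was run on simulated data with the same spread in every gene and fraction and no library that stood apart. The fitted biological coefficient of variation was 0.247 in TRAP, more than was simulated, and 0.109 in input. The simulated data therefore do not show how the test does at the spread of TRAP. Genotype was tested in the 7 libraries of a fraction, and TRAP against input and the interaction in all 14. SE was taken from the log2 fold change and its F statistic. Members removed by the filter were tested by exact permutation. Library totals were 18.8 to 54.2 M counts (M, 1e6), and a count of 0 allows 3 counts; floors and intervals cover counting error only where they rest on counts, since reads are not independent molecules.

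The alternatives were DESeq2 1.42.0 size factors and Wald test, library totals, no filter, a mean count of at least 50, limma 3.58.1 with quality weights, no sex covariate, a replicate block, 1 fit of all libraries, and each library left out; leaving TRAP WT replicate 3 out of the lists of related genes and of the likeness values was added after seeing the data. The deviations of same-numbered input and TRAP libraries from their group means correlated at 0.317, 0.259 and 0.106 in WT and 0.249, 0.247 and -0.140 in KO. Those libraries also share the sex of the mouse, which was not removed, so the correlations do not show that they came from 1 mouse. The main test did not pair them, and the replicate block did.

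The members and lists were chosen with earlier results of these data known. The text names the members, relatives called between genotypes, and up to 3 relatives per list and direction with the largest TRAP against input difference in WT. It also names the nearest 3 local genes tested on each side, the 5 with the smallest p, and the genes most like each member. Stc2, Nrg1, Trim2, Trim3, Vldlr and Zfhx2os, and Irak4 for its genotype difference, were named after their values were seen.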

Additional observations from a re-analysis of the deposited data

Results flagged for a closer look

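Tlr4 in input WT replicate 1 stood far from the other 3 libraries of its group. It measured 0.405 CPM on 14 counts there, against 0.748 to 0.778 CPM in the others, and the gap to the nearest of them was 0.929 of the whole range of the group. Of 16 sets of values checked this way, 1 was marked, and chance marks about 1 in 20. The sets were those of input WT and TRAP KO. Input KO and TRAP WT were not checked, so TRAP WT replicate 3, which stood apart, was outside this check. The genotype difference of Tlr4 in input was 0.29 with this library and -0.18 without it.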

How the results depend on the processing

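Astn2 was called lower in KO under every alternative run (-6.43 to -6.23 in TRAP and -6.75 to -6.68 in input; with a library left out, -6.61 to -6.18 and -6.78 to -6.63). Trim32 stayed above 0 throughout. In TRAP it was 0.88 to 1.04 with a library left out and called in 0 of those 7 fits; the other settings called it with DESeq2's Wald test (0.94), quality weights (1.03) and all 14 libraries in 1 fit (0.95), each giving 2 members called among 3, 4 and 2 genes, and 1 to 2 genes were called with a library left out. In input Trim32 was 0.97 to 1.21 with a library left out (adjusted p 0.0164 to 0.397), leaving 1 to 2 members and 1 to 158 genes called, the 158 without KO replicate 2. Genes called in input were 5 with DESeq2 size factors, 23 with no filter, 292 with DESeq2's Wald test and 8 with quality weights. With the replicate block in place of sex, Trim32 in input was 1.05 (adjusted p = 0.0598), with 1 member and 1 gene called. The interaction had 1 gene called by DESeq2's Wald test. The cause of these differences was not tested.

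Genotype and interaction differences that were not called changed sign. In TRAP, Astn1 read 0.021 with library totals and 0.22 with quality weights, Brinp2 0.064 with quality weights, and Brinp3 -0.042 with quality weights, -0.00067 without sex and -0.0025 with the replicate block; Brinp3 in input read -0.0072 without sex. The interaction read 0.047 for Brinp3 with library totals and 0.082 for Astn1 with quality weights. With a library left out, TRAP values ran from -0.21 to 0.29 for Astn1, -0.57 to 0.16 for Brinp2 and -0.097 to 0.16 for Brinp3; input values from -0.018 to 0.29 for Brinp2, -0.092 to 0.19 for Brinp3, -1.18 to 0.20 for Pappa and -0.18 to 1.00 for Tlr4; and interactions from -0.39 to 0.17 for Astn1, -0.81 to 0.0045 for Brinp2, -0.13 to 0.071 for Brinp3, -2.01 to 0.31 for Tlr4 and -0.15 to 0.012 for Trim32.

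Between TRAP and input, library totals turned 2 called differences in WT to the other side, Astn2 to a call lower (-0.35, adjusted p = 0.0392) and Astn1 to -0.19, not called. In KO they took Astn1, not called before either, to -0.34, and ended the calls of Astn2 (0.013) and Brinp2 (0.38). A mean count of at least 50 ended the call of Astn2 in WT (0.26, adjusted p = 0.0946). Trim32 in WT was called with library totals (-1.07), a mean count of at least 50 (-0.46, adjusted p = 0.00265) and quality weights (-0.26, adjusted p = 0.0377), and Astn1 in KO with quality weights (0.42, adjusted p = 7.29e-04) and without sex (0.44, adjusted p = 0.0492). The replicate block of genotype and number ended the call of Trim32 in KO (-0.28, adjusted p = 0.0532) and changed no other member's call between fractions. The deviations of same-numbered KO and WT libraries correlated at 0.0812, 0.139 and -0.0125 in input and at -0.0470, -0.208 and -0.0959 in TRAP. Depth limits Tlr4 and Pappa in TRAP, with 0 to 5 and 3 to 21 counts.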
